A study of Homo sapiens with 6 samples.

Results

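The genes described here were the kinase genes outside the MAPK core, chosen by symbol from the table of 3’ UTR alternative polyadenylation (APA) of HL-60 cells. The rule took symbols that start like those of known kinase families, such as MAP3K, MAP4K, CSNK, STK, PIK3, CAMK and CDK, and left out MAP3K7 and 5 CDK genes. It found 33 of the 2723 genes, and it used names alone, with no measured value. HL-60 is a human promyeloblast line, and all samples were treated with phorbol-12-myristate-13-acetate (PMA) at 3 nM for 6 h, which starts their differentiation to macrophages. There were 3 samples of OE-CFIm25 and 3 of OE-control. OE-CFIm25 cells carried the CFIm25 coding sequence in a lentiviral vector with an EF-1a promoter, OE-control cells the same backbone without an insert, and both were selected with puromycin. QuantSeq FWD reads, which mark the 3’ ends of mRNAs, gave for each gene the pair of most used poly(A) sites (PASs), a proximal one (pPAS) and a distal one (dPAS). This pair was set once for all samples, so what follows describes which stretch of 3’ UTR these genes could gain or lose, and not how OE-CFIm25 moved them.

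Protein and lipid kinases pass on signals by adding phosphate to their targets. In myeloid cells PMA acts through protein kinase C, and the MAP3K and MAP4K families, PI3-kinase and their partners carry signals of this kind to the nucleus and the cytoskeleton. Cleavage at a pPAS leaves a short 3’ UTR, while cleavage at the dPAS adds a stretch that can hold AU-rich elements and microRNA target sites. A PAS is usually preceded by the hexamer AAUAAA or a variant, and CFIm25 binds UGUA upstream of the cleavage site. The symbol prefixes also took in 4 genes whose products are not kinases. CAMK2N1 inhibits CaMKII, CDK5RAP2 is a centrosome protein, PIK3R1 is the regulatory subunit of PI3-kinase, and PRKAR2A is a regulatory subunit of protein kinase A. The other 29 encode enzymes with a catalytic domain.

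The 3 shortest pairs and the longest are shown first, as the extremes of the distance between PASs. Each line gives the last 30 nt up to the PAS in hg19, on the sense strand from 5′ to 3′, with AATAAA or ATTAAA in capitals. The first gene is PIK3CG, the catalytic subunit of PI3-kinase gamma in blood cells, on the plus strand at chr7:106549315-106549344 and chr7:106549389-106549418. The next is STK25, a kinase of the Golgi apparatus, on the minus strand at chr2:242434515-242434544 and chr2:242434437-242434466. The third is CLK3, a kinase of splicing factors, on the plus strand at chr15:74922428-74922457 and chr15:74922512-74922541. The last is HIPK2, a nuclear kinase of the DNA damage response, on the minus strand at chr7:139257381-139257410 and chr7:139246317-139246346.
PIK3CG pPAS: acaatatggagaaAATAAActtgtattttt
PIK3CG dPAS: tctgataAATAAAtttggttctagtttggt
STK25 pPAS: ttttaagaaaattgaattacttgtttcctg
STK25 dPAS: cctgccactttcAATAAAgacctgacttgg
CLK3 pPAS: agttatAATAAAgtgtttcttactgtttgt
CLK3 dPAS: ccttattAATAAAgtctttcttagcagttc
HIPK2 pPAS: agagggtgggaaatctatggtttttatttt
HIPK2 dPAS: gaattacATTAAActgtttgaaatcactgt
PIK3CG and CLK3 had AATAAA before both PASs, and STK25 had a signal before its dPAS alone. HIPK2 had ATTAAA before its dPAS and no hexamer in the last 30 nt of its pPAS, where the nearest began 34 nt before the site. Counted over 40 nt, as in all that follows, HIPK2 thus had a signal at both PASs. Among the 6 shortest pairs STK25, CAMKK2, MAP3K1 and PRKCD lacked a signal at the pPAS, as did MAP3K2 and DYRK2 among the 5 longest.

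In all 33 genes both PASs fell within the terminal exon of a GENCODE transcript and past its stop codon, as in 99.7% of the other genes. The pairs were taken from this region and such transcripts were preferred, so the method largely set this outcome. In the transcript used for each gene, the pair changes the 3’ UTR and leaves the coding sequence alone. The 3’ UTR up to the dPAS had a median of 3005 nt, against 1736 nt in the 2683 other genes with an annotated stop codon. Up to the pPAS the medians were 1045 nt and 572 nt. The protein phosphatase genes, at 2346 nt and 1168 nt, and the MAP kinase and MAP2 kinase genes, at 2258 nt and 1028 nt, also lay above the other genes at both sites. In the kinase genes the pPAS lay at a median of 47.5% of the way to the dPAS, against 44.8% in the other genes. Genes are not replicates, and the members of some families share ancestry, so these are descriptions with no test.

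**Figure D1:**
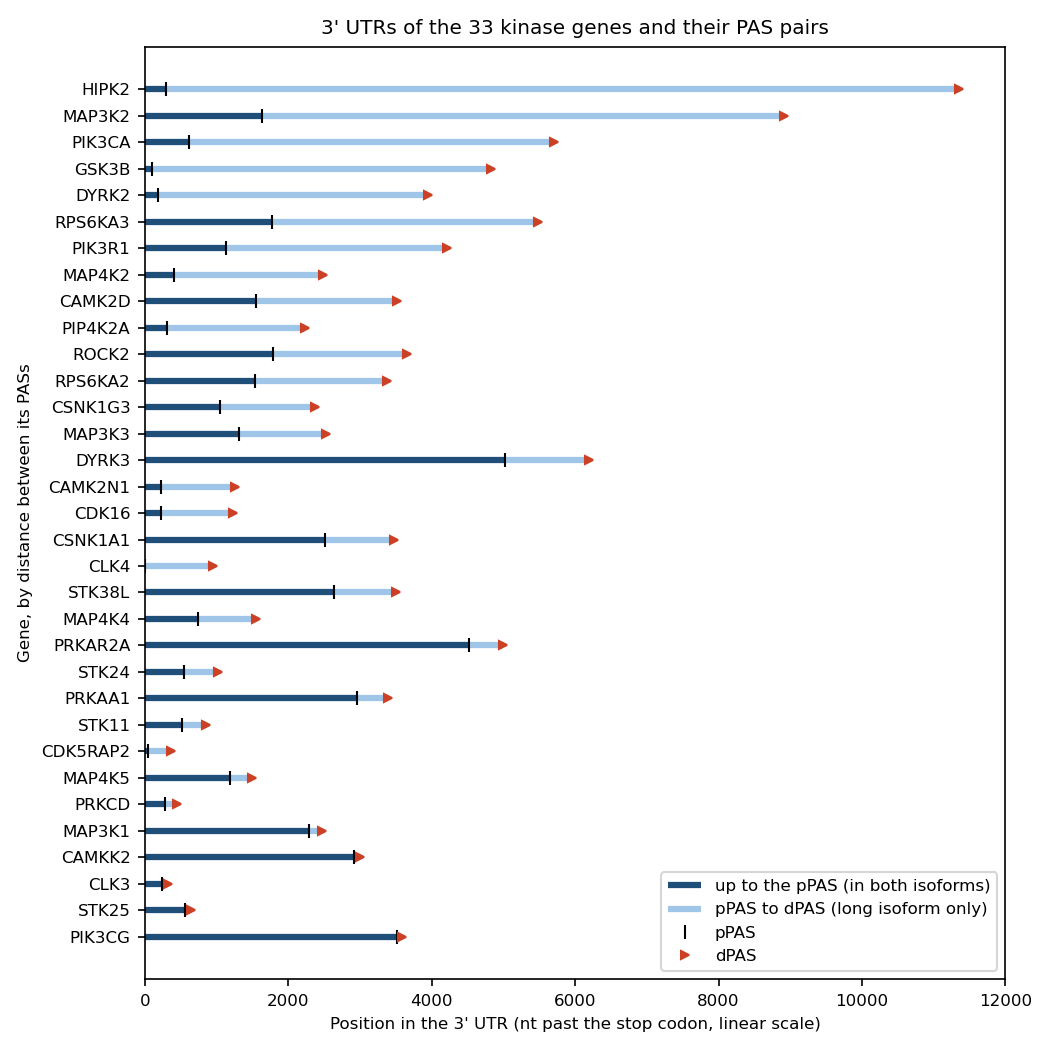
3’ UTR of each of the 33 kinase genes in nt past the stop codon on a linear scale. The dark bar runs up to the pPAS and the light bar from there to the dPAS, with genes ordered by the distance between both, from PIK3CG (74 nt) to HIPK2 (11064 nt).

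The distance between pPAS and dPAS had a median of 1003 nt, with quartiles at 336 nt and 1960 nt. In the 2690 other genes of the table the median was 755 nt, with quartiles at 255 nt and 1752.75 nt. The 8 MAP kinase and MAP2 kinase genes had a median of 634 nt, and the 21 protein phosphatase genes one of 834 nt. Pairs less than 100 nt apart made up 4 of 33 kinase genes (12.1%) and 10.8% of the other genes. Pairs 2500 nt or more apart made up 7 of 33 (21.2%, 95% Wilson interval 10.7 to 37.8%) and 15.5%. The interval, which covers counting error only, holds the value of the other genes.

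**Figure D2:**
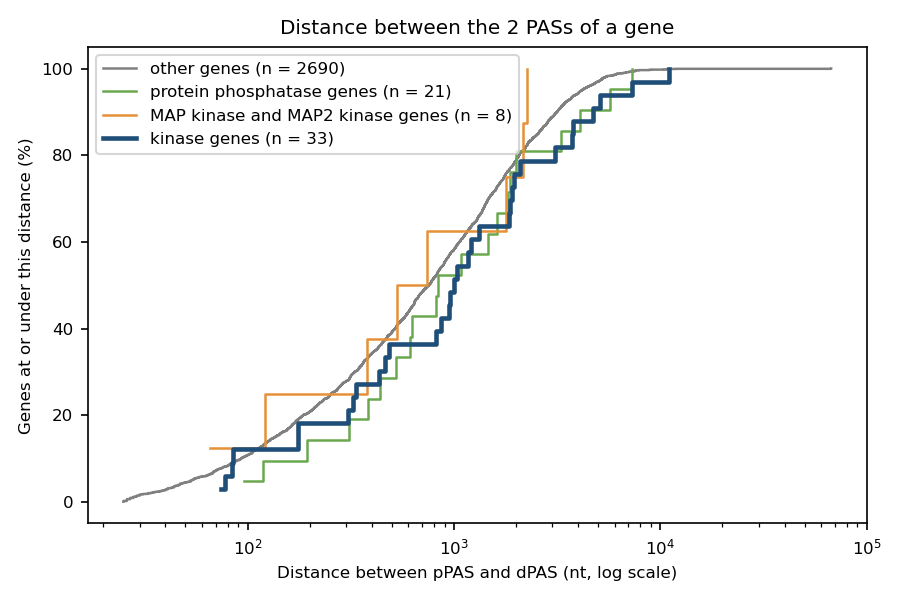
Share of genes at or under each distance between pPAS and dPAS, with distance in nt on a log scale, for the 33 kinase genes, the 8 MAP kinase and MAP2 kinase genes, the 21 protein phosphatase genes and the 2690 other genes. The curve of the kinase genes lies mostly to the right of that of the other genes, with medians of 1003 nt and 755 nt.

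The longest pair belonged to HIPK2, at 11064 nt, the 4th longest of all 2723 genes. Its pPAS lay 292 nt past the stop codon and its dPAS 11356 nt past it. MAP3K2, a kinase that activates the ERK5 branch, followed with 7279 nt (pPAS at 1631 nt, dPAS at 8910 nt). PIK3CA, the catalytic subunit of PI3-kinase alpha, had 5088 nt between a pPAS at 621 nt and a dPAS at 5709 nt. GSK3B, which phosphorylates beta-catenin and glycogen synthase, had 4736 nt, and its pPAS lay only 95 nt past the stop codon. DYRK2, a kinase that phosphorylates p53, had 3765 nt, with the pPAS at 185 nt. In HIPK2, GSK3B and DYRK2 the short 3’ UTR was 2.57%, 1.97% and 4.68% of the long one. In MAP3K2 it was 18.3%, since the short form itself held 1631 nt.

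The shortest pair was that of PIK3CG, with 74 nt between PASs at 3512 nt and 3586 nt past the stop codon. STK25 had 78 nt, and CLK3 had 84 nt. CAMKK2, which phosphorylates CaMKI, CaMKIV and AMPK, had 85 nt, at 2920 nt and 3005 nt past the stop codon. MAP3K1, a kinase at the head of the JNK cascade, and PRKCD, a PMA-responsive protein kinase C, each had 175 nt. In PIK3CG and CAMKK2 the pair lay at the far end of a long 3’ UTR, and the short form held 97.9% and 97.2% of the long one. In CLK3 and PRKCD the whole 3’ UTR was short, at 317 nt and 449 nt. The lowest position of any pPAS was that of CLK4, a paralog of CLK3, at 6 nt past the stop codon, and that of CDK5RAP2 followed at 36 nt.

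Family here means a shared symbol prefix, which can join genes whose products are unlike, such as CDK16 and CDK5RAP2. Members of such a family did not share a distance. The MAP3K genes had 175 nt (MAP3K1), 1216 nt (MAP3K3, a kinase upstream of ERK5 and NF-κB) and 7279 nt (MAP3K2). The PI3-kinase genes had 74 nt (PIK3CG), 3085 nt (PIK3R1) and 5088 nt (PIK3CA). The CaMK group had 85 nt (CAMKK2), 1029 nt (CAMK2N1) and 1960 nt (CAMK2D, a CaMKII subunit). The MAP4K genes, which encode kinases upstream of JNK signaling, were closer, with 308 nt (MAP4K5), 816 nt (MAP4K4) and 2089 nt (MAP4K2). The STK genes had 78 nt (STK25), 336 nt (STK11, the LKB1 kinase that activates AMPK), 465 nt (STK24) and 868 nt (STK38L). These 5 were the families with 3 or more members, and each of the first 3 held both a pair of at most 175 nt and a pair above the upper quartile of the other genes.

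Prefix families with a pair of members were closer to each other in part. PRKAA1, the catalytic subunit of AMPK, and PRKAR2A had 434 nt and 482 nt, though they belong to different kinases. CSNK1A1, a kinase of the beta-catenin destruction complex, and its relative CSNK1G3 had 956 nt and 1327 nt. The ribosomal S6 kinases RPS6KA2 and RPS6KA3 had 1845 nt and 3720 nt. CLK3 and CLK4 had 84 nt and 946 nt, CDK5RAP2 and CDK16 had 324 nt and 1003 nt, and DYRK3 and DYRK2 had 1175 nt and 3765 nt. PIP4K2A, a kinase of phosphatidylinositol phosphate, had 1921 nt, and ROCK2, an effector of RhoA at the actin cytoskeleton, had 1877 nt. DYRK3 had the longest 3’ UTR up to a pPAS, at 5016 nt, so that both of its isoforms were longer than the long isoform of most of these genes.

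The poly(A) signal was less frequent before the pPAS than before the dPAS. AATAAA or ATTAAA lay within 40 nt up to the pPAS in 18 of 33 genes (54.5%, 95% Wilson interval 38.0 to 70.2%) and up to the dPAS in 29 of 33 (87.9%, 72.7 to 95.2%). The other genes had 55.5% and 80.2%. With AATAAA alone, 10 of 33 pPASs (30.3%, other genes 40.4%) and 26 of 33 dPASs (78.8%, other genes 64.4%) had it. In a control window of 40 nt that lay more than 100 nt before the PAS, the kinase genes had a signal in 2 of 33 at each site (6.06%). The other genes had 3.42% before the pPAS and 6.84% before the dPAS. In 14 genes both PASs had a signal (42.4%, other genes 45.5%). In 15 only the dPAS had it (45.5%, other genes 34.7%) and in 4 only the pPAS (12.1%, other genes 10.0%). No gene lacked it at both (95% Wilson interval 0 to 10.4%), against 9.78% of the other genes, a value that the interval holds. The 4 genes with a signal at the pPAS alone were CLK4, CSNK1A1, MAP4K2 and PIK3CA. Among them, CLK4 shows the contrast over 30 nt, at chr5:178030612-178030641 for the pPAS and chr5:178029666-178029695 for the dPAS on the minus strand, with the hexamer in capitals.
CLK4 pPAS: tttgacttATTAAAaaagaaatgaaatggg
CLK4 dPAS: attgattggttacataaactttttgacttc
The dPAS of CLK4 lay at an annotated transcript end all the same. Of the 33 genes, 28 had the dPAS within 24 nt of an annotated end (84.8%, other genes 73.6%), 17 the pPAS (51.5%, other genes 39.6%) and 12 both. The 5 dPASs away from any annotated end were those of MAP4K4, CSNK1G3, PIP4K2A, MAP4K2 and DYRK2.

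Many of the pPASs without a signal were followed by genomic A, in the kinase genes and in the other genes alike. The term A-rich is used here for a PAS with 12 or more A among the next 20 nt, or with 6 or more A in a row there. By this rule 13 of 33 pPASs were A-rich (39.4%, 95% Wilson interval 24.7 to 56.3%), against 26.6% in the other genes, and 3 of 33 dPASs (9.09%), against 10.3%. No gene had both (95% Wilson interval 0 to 10.4%), against 3.72% of the other genes, a value that the interval holds. The pPAS was A-rich and without a signal in 9 of 33 genes (27.3%, other genes 23.4%). It was without a signal and not A-rich in 6 of 33 (18.2%, other genes 21.1%). The A-rich pPASs were those of MAP3K1, MAP3K2, MAP3K3, MAP4K4, PRKAR2A, CAMK2D, CAMK2N1, RPS6KA2, RPS6KA3, ROCK2, PIK3R1, GSK3B and HIPK2. The A-rich dPASs were those of CSNK1A1, MAP4K2 and PIK3CA. Examples of both kinds follow, each as the last 10 nt before cleavage and the next 20 nt of the genome, with runs of 6 or more A in capitals. MAP3K1 lies on the plus strand at chr5:56191792-56191821, ROCK2 on the minus strand at chr2:11321759-11321788, RPS6KA3 on the minus strand at chrX:20171730-20171759, CSNK1A1 on the minus strand at chr5:148872928-148872957 and PIK3CA on the plus strand at chr3:178957852-178957881. For PRKCD, whose pPAS also lacked a signal but was not A-rich, the window is at chr3:53226547-53226576 on the plus strand.
MAP3K1 pPAS: agcaaatgttacAAAAAAAAAAAAAAAAAA
ROCK2 pPAS: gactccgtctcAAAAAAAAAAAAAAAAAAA
RPS6KA3 pPAS: tctcaagaaggAAAAAAAAAAAAAAgaatg
CSNK1A1 dPAS: aaaggaaatctAAAAAAAAAAAAAAAAAAA
PIK3CA dPAS: gctgtttattAAAAAAAAAAAgaaaaatta
PRKCD pPAS: acatagacatatatatatatataataggct
The A-rich pPASs of MAP3K1, MAP4K4, PRKAR2A and ROCK2 had 19 A in 20 nt, the highest number among the kinase genes. CAMK2N1 had 13 and GSK3B, which was called for its run, had 8. No pPAS outside the A-rich set had more than 9.

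A signal was found at 4 of the 13 A-rich pPASs (30.8%) and at 14 of the 20 others (70.0%). In the other genes of the table they were 86 of 715 and 1407 of 1975 (71.2%). All 3 A-rich dPASs lacked a signal. Its position was taken as the first base of the copy nearest the PAS. In the 4 A-rich pPASs that had a signal, this base lay 6 nt (MAP3K3), 9 nt (CAMK2N1), 10 nt (GSK3B) and 34 nt (HIPK2) before the site. In the 14 others it lay 16 to 23 nt before. At the dPAS the median was 20 nt, with ROCK2 at 8 nt and GSK3B at 31 nt as the extremes. Some sites, such as the pPAS of CAMK2N1 and the dPAS of ROCK2, also held copies farther upstream. An A-rich genomic stretch can pair with an oligo(dT) primer inside a transcript, and whether reads at these sites arose in this way was not tested. Of the 13 A-rich pPASs, 7 lay at an annotated transcript end, as did 10 of the 20 others. The other genes had 258 of 715 and 807 of 1975 there.

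**Figure D3:**
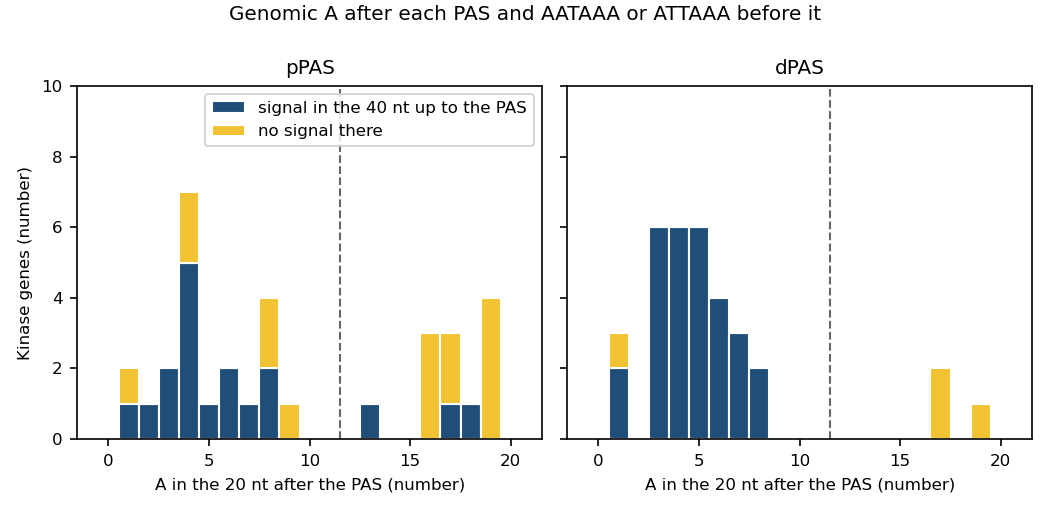
Number of A in the 20 nt after the pPAS (left) and the dPAS (right) of the 33 kinase genes. Bars count genes, blue with AATAAA or ATTAAA in the 40 nt up to the PAS and yellow without, and the dashed line marks the limit of 12 A. The genes right of the line, 12 at the pPAS and 3 at the dPAS, are mostly yellow, and GSK3B with 8 A is A-rich by its run alone.

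The distances went along with this feature. The 13 genes with an A-rich pPAS had a median distance of 1877 nt, and the 20 others one of 666.5 nt. In the other genes of the table the medians were 773 nt and 749 nt. Without any pair that held an A-rich PAS, 17 kinase genes remained, with a median of 434 nt against 710 nt in the other genes treated in the same way. The median of the kinase genes was thus above that of the other genes over all pairs and below it over these. HIPK2, MAP3K2, PIK3CA, GSK3B, RPS6KA3 and PIK3R1, which are 6 of the 7 longest pairs, each had an A-rich PAS, and DYRK2 did not. In PIK3CA this was the dPAS and in the rest the pPAS. The share of A-rich PASs among the long pairs of the other genes was not counted.

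UGUA was counted, as TGTA on the sense strand, in the 100 nt up to each PAS. It was present at the pPAS in 11 of 33 genes (33.3%, 95% Wilson interval 19.8 to 50.4%), against 49.6% in the other genes, and at the dPAS in 18 of 33 (54.5%), against 1615 of 2690. The dPAS had more UGUA than the pPAS in 12 genes (36.4%, other genes 36.6%), fewer in 6 (18.2%, other genes 25.9%) and as many in 15. No UGUA was found at either PAS in 11 genes (33.3%, 95% Wilson interval 19.8 to 50.4%, other genes 22.3%), which were STK25, STK11, PRKAR2A, MAP4K5, MAP4K2, MAP3K3, MAP3K2, DYRK3, CSNK1A1, CLK4 and CDK5RAP2. HIPK2 had the most, with 4 at the dPAS and none at the pPAS. GSK3B, ROCK2 and RPS6KA3 had 2 at the dPAS and none at the pPAS. All 4 of these pPASs were A-rich. CAMK2N1 had 2 at the dPAS and 1 at the pPAS. CAMK2D, CDK16, CLK3, PIK3CA, PIK3R1, PRKAA1 and RPS6KA2 had 1 at the dPAS alone. Of these, the pPASs of CDK16, CLK3, PIK3CA and PRKAA1 were not A-rich.

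The opposite order was strongest in STK38L, a kinase of the Hippo pathway, with 3 UGUA at the pPAS and none at the dPAS. DYRK2 and PRKCD had 2 and none. STK24 and CAMKK2 had 2 and 1, and PIP4K2A had 1 and none. None of these 6 pPASs was A-rich, but the A-rich pPASs of MAP3K1, MAP4K4 and CAMK2N1 also held UGUA. How A-rich pPASs and the order of UGUA go together in the other genes was not counted. The windows of pairs less than 100 nt apart overlap, so that the single UGUA of PIK3CG was counted at both PASs and that of CLK3, which spans its pPAS, only at the dPAS. The windows of 30 nt richest in UGUA are shown for 4 genes at the extremes, with TGTA in capitals. They lie at chr7:139246363-139246392 on the minus strand (HIPK2), chr2:11319946-11319975 on the minus strand (ROCK2), chrX:20168078-20168107 on the minus strand (RPS6KA3) and chr12:68052605-68052634 on the plus strand (DYRK2).
HIPK2 dPAS: atatgcatatTGTAtatgTGTAgaaaTGTA
ROCK2 dPAS: ttgttgcatcttcgtagtaaTGTAatTGTA
RPS6KA3 dPAS: tTGTAttcctgtcatagaacaggtttTGTA
DYRK2 pPAS: TGTAtcttttcagcacttaattttaaTGTA
In DYRK2 the UGUA pair stood before the pPAS, which had no poly(A) signal, while in the other 3 genes UGUA stood before a dPAS with a signal.

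**Figure D4:**
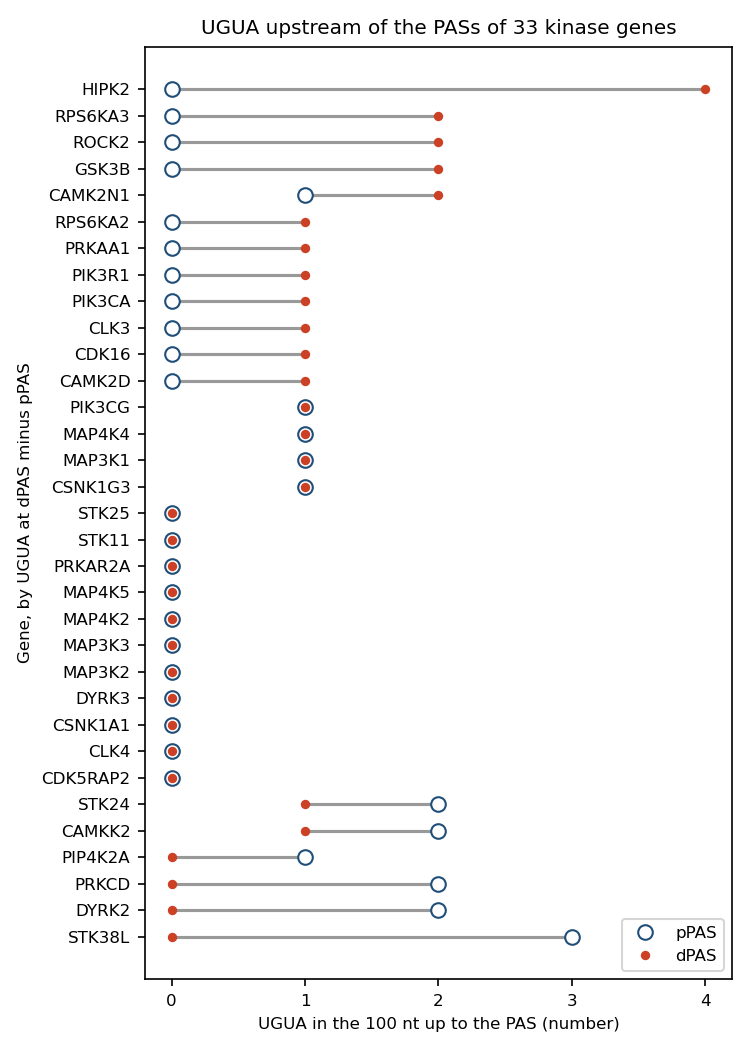
Number of UGUA in the 100 nt up to the pPAS (open circles) and the dPAS (filled points) of each of the 33 kinase genes, ordered by the difference. HIPK2 is at the top with 0 and 4, STK38L at the bottom with 3 and 0, and 15 genes have equal numbers.

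The stretch between the PASs, which only the long isoform holds, came to 60785 nt over the 33 genes. Its GC content had a median of 35.6%, against 37.4% in the other genes, with MAP3K1 lowest at 21.1% and STK11 highest at 63.1%. CDK16, a kinase of vesicle transport, and MAP4K2 were also GC-rich, at 57.0% and 55.9%. ATTTA is the core of AU-rich elements that bring proteins of mRNA decay. It occurred 160 times in 25 of the 33 genes (75.8%, other genes 68.7%), or 2.63 per kb against 2.34 per kb in the other genes. PIK3CA held 25 of these (4.91 per kb), HIPK2 20 (1.81 per kb), DYRK2 18 (4.78 per kb) and MAP3K2 17 (2.34 per kb). GSK3B held 11, and CAMK2D, RPS6KA3 and STK38L held 8 each, in STK38L over 868 nt. MAP4K5 had 3 in 308 nt, the highest density at 9.74 per kb. The longer TATTTAT occurred 16 times in 11 genes (33.3%, other genes 25.4%), at 0.263 per kb against 0.311 per kb.

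**Figure D5:**
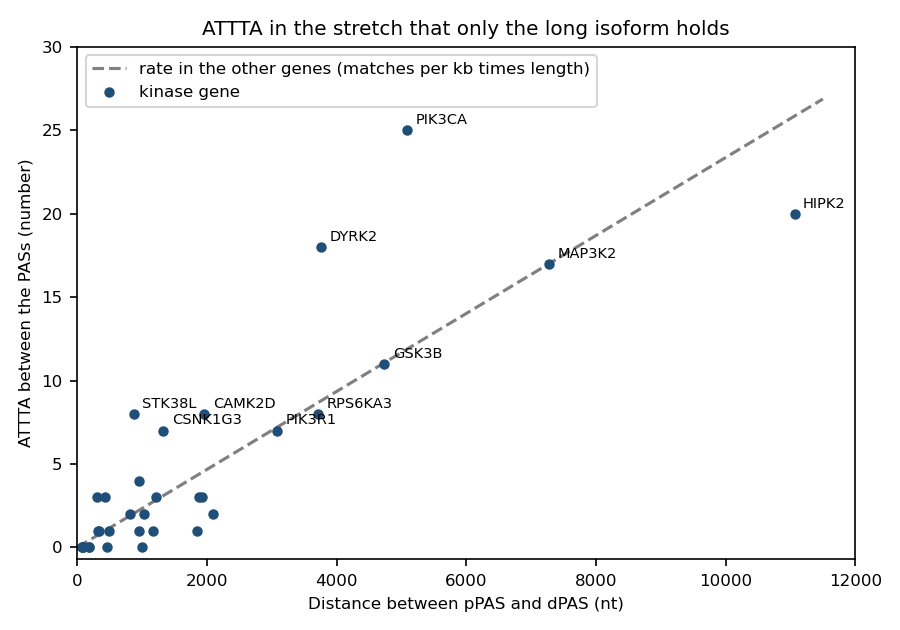
Number of ATTTA between the PASs of each kinase gene against the distance between them in nt. The dashed line is the rate of the other genes, 2.34 per kb, times the distance. PIK3CA (25) and DYRK2 (18) lie above it, MAP3K2 (17) and GSK3B (11) on it and HIPK2 (20) below it.

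UGUA inside the stretch occurred 366 times, or 6.02 per kb, against 5.90 per kb in the other genes. TGTANATA, the binding motif of the Pumilio proteins, which repress their target mRNAs, was present in 12 of 33 genes (36.4%, 95% Wilson interval 22.2 to 53.4%) and in 21.1% of the other genes. It occurred 24 times, or 0.395 per kb against 0.234 per kb. Matches to TGTANATA are also matches to UGUA. PIK3R1 had 6 of them and GSK3B 4, while HIPK2, MAP3K2, PIK3CA and ROCK2 had 2 each. The protein phosphatase genes had 0.398 per kb. In RPS6KA3, with 27 UGUA in 3720 nt, no TGTANATA was found.

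Target sites were searched for 14 microRNAs that are known from myeloid cells or from cell cycle control. Their seeds, bases 2 to 8, fell into 12 sequences, since miR-17-5p, miR-20a-5p and miR-106a-5p share theirs. The 3 with the most matches or the closest tie to myeloid cells are shown as RefSeq gives them (GRCh38.p14), with the seed in capitals.
hsa-miR-17-5p: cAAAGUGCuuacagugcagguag
hsa-miR-424-5p: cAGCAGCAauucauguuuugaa
hsa-miR-223-3p: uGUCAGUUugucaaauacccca
A perfect match to a seed was found 64 times, in 21 of the 33 genes (63.6%), against 54.4% of the other genes, or 1.05 per kb against 1.12 per kb. A match is a description of the letters, and no microRNA was measured here. HIPK2 had 10 matches, MAP3K2 9, and PIK3CA, ROCK2 and RPS6KA3 had 5 each. PIK3R1 had 4, DYRK2 and MAP3K3 had 3, and 13 further genes had 1 or 2. The miR-424-5p seed had 13 matches in 7 of the 33 genes, and 6 of these matches were in HIPK2. The miR-17-5p seed had 11 in 9 of the 33 genes, and 3 of these were in MAP3K2. Among the other genes, 15.9% had a match to the miR-424-5p seed and 18.4% to the miR-17-5p seed. The miR-223-3p seed, of a microRNA of granulocytes and monocytes, had 6 matches in 5 genes (CDK16, HIPK2, MAP4K2, PIK3CA and PIK3R1), or 0.0987 per kb against 0.0533 per kb in the other genes. Of the other genes, 6.13% had a match to this seed. The rates were also higher in the kinase genes for miR-155-5p (0.0987 per kb against 0.0724 per kb), let-7a-5p (0.0823 against 0.0556) and miR-424-5p (0.214 against 0.169). All remaining seeds went the other way. Among them were miR-125b-5p (0.0165 per kb against 0.0877 per kb), miR-146a-5p (0.0329 against 0.0744) and miR-17-5p (0.181 against 0.193). These rates rest on 1 to 13 matches in the kinase genes. Sites are shown over 30 nt for a gene of each seed, with the match in capitals, at chr2:11320379-11320408 (ROCK2, minus strand), chr2:128061800-128061829 (MAP3K2, minus strand) and chr3:178954741-178954770 (PIK3CA, plus strand).
ROCK2 miR-424-5p: cagttttaagaagttaTGCTGCTGCTgtta
MAP3K2 miR-17-5p: atcttgaaaattttcaGCACTTTtccttgt
PIK3CA miR-223-3p: tccttgaatatggtgtAACTGACtattggc
In ROCK2 the capitals hold 2 overlapping matches, which were counted separately. The 6 miR-424-5p matches of HIPK2 also include overlapping ones, so they and the 13 of this seed stand at fewer separate places.

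Exons of other genes covered a PAS in 6 of the 33 genes. The rest of the table was not searched in this way, so whether this count is usual is not known. On the same strand, the pPAS of CSNK1A1 lay in an exon of a long noncoding RNA and the dPAS of MAP4K4 in an exon of FLJ20373, so that reads there could belong to either gene. On the opposite strand, the dPASs of MAP3K3, PIK3CA and STK11 lay in exons of LIMD2, KCNMB3 and CBARP, and both PASs of STK24 in exons of FARP1.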

How the data were processed

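QuantSeq FWD libraries of HL-60 cells treated with 3 nM PMA for 6 h were made from OE-CFIm25 and OE-control, 3 samples each. According to the methods and the submitters' processing notes, read 2 was trimmed, aligned with STAR 2.7.7a to hg19 and kept at PASs of PolyA_DB, and the most used pair past the stop codon of the terminal exon was taken per gene. The positions of this pair, in nt of hg19, were deposited by the authors and were the only values used. The table also holds the authors' own comparison of the groups (RED, an adjusted p and a call), which was not used, so no level or change is given. Read statistics of 6 libraries, 12 entries in 2 tables, matched no sample's labels and were not used, and depth is not given.

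From 2724 rows, 1 repeat was dropped. Sequence was read from GRCh37, which is hg19, and 3’ UTRs and transcript ends from GENCODE release 44 lifted to GRCh37. Motifs were counted on the sense strand with overlaps allowed, by scripts that were tested on simulated sequence (Python 3.11.15, pandas 2.3.3, scipy 1.17.1). Distances past the stop codon exclude the stop codon. Transcripts holding both PASs in the 3’ UTR of their last exon were preferred, and MANE transcripts among these. The text names every gene, with the 5 longest and 5 shortest pairs, the largest UGUA differences, A-rich PASs and families of 3 or more in full. The members and lists were chosen with earlier results of these data known. The microRNAs, the transcript ends, the overlapping genes, TGTANATA, the MAP kinase and phosphatase genes set beside the members and the lengths from the stop codon were chosen after the files had been seen. No test was run, since genes are not replicates and no value per sample was used.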

Additional observations from a re-analysis of the deposited data

How the results depend on the processing

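Of 22 alternatives to 8 results, 19 gave a value within 1.5 times that reported, among them other windows for the poly(A) signal, for UGUA and for A-rich sequence. The exceptions were these. The median distance between the PASs fell from 1003 nt to 434 nt over pairs with no A-rich PAS, which leaves fewer genes. The pPAS signal was found in 10 genes in place of 18 when AATAAA alone was counted, which leaves out ATTAAA (30.3% against 40.4% in the other genes, where both hexamers gave 54.5% against 55.5%). The longer TATTTAT gave 0.263 per kb in place of 2.63 for ATTTA. The cause of the first was not tested further. No paired analysis was possible because no value per sample was used, and leaving out a replicate was not possible for the same reason. With no reads per PAS, the precision of each position and of the choice of the pair cannot be given, and how far A-rich PASs rest on priming inside transcripts was not tested. The planned description of reads per library was not run, since the library names matched no sample.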

Other observations

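The letters GTCTC were searched in the 40 nt up to the pPAS after the printed windows of ROCK2 and RPS6KA3 had been seen. They were found in 1 of the 13 A-rich pPASs of the kinase genes (7.69%), that of RPS6KA3, and in 12.2% of the A-rich pPASs of the other genes. In pPASs that were not A-rich they were found in 0 of 20 kinase genes and in 1.27% of the other genes. The copy in ROCK2 spans its pPAS and so fell outside the window searched.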
